A study of Mus musculus with 24 samples.

Results

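The 8 genes described here encode the proteins that copy, establish and remove methylation of cytosine in DNA, namely Dnmt1, Uhrf1, Dnmt3a, Dnmt3b, Dnmt3l, Tet1, Tet2 and Tet3. They were found by symbol in a table of 20633 RefSeq transcripts with 19409 gene symbols, where 12 transcripts carried 1 of the 8 symbols, and for each symbol the transcript with the largest sum over the 12 RNA libraries was taken. All 8 passed a filter for low counts (10 reads or more in 3 or more libraries), which 16940 transcripts passed and were tested.

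The study asked what the enzymatic activity of Polycomb repressive complex 1 (PRC1), which ubiquitinates histone H2A, contributes to gene expression in mouse embryonic stem cells (ESCs). Calibrated RNA-seq (cRNA-seq) was performed on rRNA-depleted total RNA from E14 ESC lines grown on gelatin in serum with LIF, with Drosophila SG4 cells added before extraction as a spike-in. The 4 groups held 3 replicate libraries each, and 12 matched libraries of genomic DNA had no table of their own here. The replicates are named as biological, but whether they came from separate cultures is not stated, so p-values measure the spread between these libraries.

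PRC1CKO cells (clone B9) lack Ring1a (Ring1a-/-) and carry Ring1b alleles flanked by loxP sites (Ring1bfl/fl) with ERT2-Cre at Rosa26, so that OHT removes RING1B as well. PRC1CPM cells (clone 41) carry Ring1a with the catalytic substitutions I50A and D53K throughout, the same Rosa26::ERT2-Cre, and Ring1b alleles that Cre converts from wild type to I53A/D56K. Cells of both lines were left untreated or kept for 72 h with 4-hydroxytamoxifen (OHT) at 800 nM. Untreated cells of both lines therefore already lacked active RING1A, no group was treated with OHT without the conditional alleles, and each line is 1 clone, so line and clone cannot be told apart.

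DNMT1 copies methylation onto the new strand after replication, and UHRF1 brings it to hemimethylated DNA. DNMT3A and DNMT3B place methylation on unmethylated DNA, helped by DNMT3L, which has no catalytic activity of its own. The TET enzymes oxidise methylcytosine, which leads to its loss by dilution or by base excision, and TET1 and TET2 are the family members best known from ESCs, while TET3 is best known from the egg and from neurons. ESCs grown in serum hold high levels of DNA methylation.

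The gene body of Rnf2, which encodes RING1B, held 1179 to 1866 reads in the untreated PRC1CKO libraries and 1647 to 1817 in the OHT libraries, and in PRC1CPM cells 1164 to 1760 and 1381 to 1786. Ring1, which encodes RING1A, held 196 to 265 and 262 to 311 reads in PRC1CKO and 92 to 193 and 135 to 167 in PRC1CPM cells. Only the first exons of Ring1 were deleted and most of Rnf2 lies outside the exon that Cre acts on, so these counts do not check the labels. Counting covered whole gene bodies, introns included, and libraries held 14668159 to 27016156 reads on genes. Every member had at least 738 reads in every library, so counting error was small beside the spread between replicates. In RNA from bulk cultures, fewer cells with a transcript and less of it per cell cannot be told apart.

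In the untreated PRC1CKO group the spike-in calibration set replicate 1 apart. Its size factor, the number by which reads were divided, was 0.671 against 1.30 and 1.18 in replicates 2 and 3, and for all 8 members it gave the highest value of that group. Without this library the PRC1CKO responses of Dnmt1, Uhrf1, Dnmt3a, Dnmt3l and Tet1 to OHT were 0.072, 0.015, 0.0090, 0.18 and 0.061 on the log2 scale, where with it they were between -0.16 and -0.083, and none was called either way. That of Tet3 was 0.53 (adjusted p = 0.0826, limma), and the values of Tet2 and Dnmt3b without it stand beside their results. In both PRC1CPM groups replicate 2 gave the lowest value for all 8 members. Without its OHT library the PRC1CPM responses of Dnmt1, Uhrf1 and Dnmt3a were 0.050, 0.0087 and 0.015, and that of Tet2 stands beside its result.

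The 7 tested markers of ESCs (Pou5f1, Nanog, Sox2, Zfp42, Esrrb, Klf4 and Tfcp2l1) were above 0 in every library. Their summed level was 6206 to 8532 normalised reads per kilobase of gene body in untreated PRC1CKO cells and 4805 to 5390 after OHT, with Sox2 the most abundant. In PRC1CPM cells the sum was 5560 to 6585 untreated and 4288 to 6588 after OHT. Sox2 fell in PRC1CKO cells (log2 fold change -0.89, adjusted p = 0.000510, limma), also without untreated replicate 1 (-0.72, adjusted p = 0.00331, limma), and no marker of the list was called in PRC1CPM cells (Sox2 -0.45, adjusted p = 0.136, limma).

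Markers of other cell types moved with OHT at far lower levels. For primitive endoderm (Gata4, Gata6, Sox17, Dab2 and Foxa2, none at 0 in any library) 4 of 5 rose in PRC1CKO and 5 of 5 in PRC1CPM cells, with sums of 8.60 to 28.5 untreated and 67.3 to 95.3 after OHT in PRC1CKO and of 9.74 to 11.9 and 28.7 to 47.6 in PRC1CPM cells, Gata6 being the most abundant in every PRC1CKO library. Of the neural progenitor genes Pax6, Sox1 and Nes, Pax6 and Nes rose in PRC1CKO cells and Pax6 in PRC1CPM cells, with sums of 74.4 to 165 and 183 to 215 in PRC1CKO and 102 to 134 and 120 to 247 in PRC1CPM cells, Nes being the most abundant in every library. Otx2, of the formative epiblast list, fell in both lines (-1.01, adjusted p = 0.00326, and -1.20, adjusted p = 0.000591, limma) while its other 5 genes were not called. Of 3 tested trophoblast genes, Hand1 rose in both lines, Cdx2 rose in PRC1CPM cells and Tfap2c, the most abundant in every library, fell in PRC1CKO cells, with sums of 144 to 190 and 123 to 168 in PRC1CKO and 110 to 127 and 149 to 235 in PRC1CPM cells. Of 4 tested fibroblast genes Thy1 rose and Postn fell in PRC1CKO cells, none was called in PRC1CPM cells (Col1a2, at -0.81, was with the replicate number as a block, adjusted p = 5.94e-07 against 0.0881 without it, limma), and the sums were 181 to 395 and 309 to 341 in PRC1CKO and 302 to 930 and 369 to 1045 in PRC1CPM cells, replicate 1 having the highest sum in all 4 groups with Col1a1 or Thy1 leading. The trophoblast and fibroblast sums also hold Elf5 and Dcn, which were too low to be tested. The part of such cells in the results on the 8 members was not tested.

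Of the 8 members, Tet2 fell after OHT in both lines and Dnmt3b rose in PRC1CKO cells. The mean of Tet2 went from 5270 to 2432 normalised reads in PRC1CKO and from 4652 to 2733 in PRC1CPM cells, and the mean of Dnmt3b from 2483 to 3844 in PRC1CKO cells. Dnmt1, Uhrf1, Dnmt3a, Dnmt3l, Tet1 and Tet3 did not pass the test in any comparison over all 12 libraries without a replicate block. A gene was called where limma, on log2(normalised read count + 1) over the 12 libraries, gave a change of more than 1.5-fold with an adjusted p below 0.05.

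In PRC1CKO cells 1 of 8 members was called higher, where 16.5% of all tested genes were, and 1 of 8 was called lower, where 3.09% were. In PRC1CPM cells 0 of 8 were called higher (13.1% of all genes) and 1 of 8 lower (1.40%, or 237 genes, against 461 with the replicate number as a block and the same 1 member). The members' median log2 fold change was -0.098 in PRC1CKO and -0.16 in PRC1CPM cells, against 0.12 and 0.10 over all tested genes, and 2 and 3 of the 8 were above 0, where 61.1% and 62.0% of all tested genes were. Each line was compared with its own untreated libraries.

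**Figure D1:**
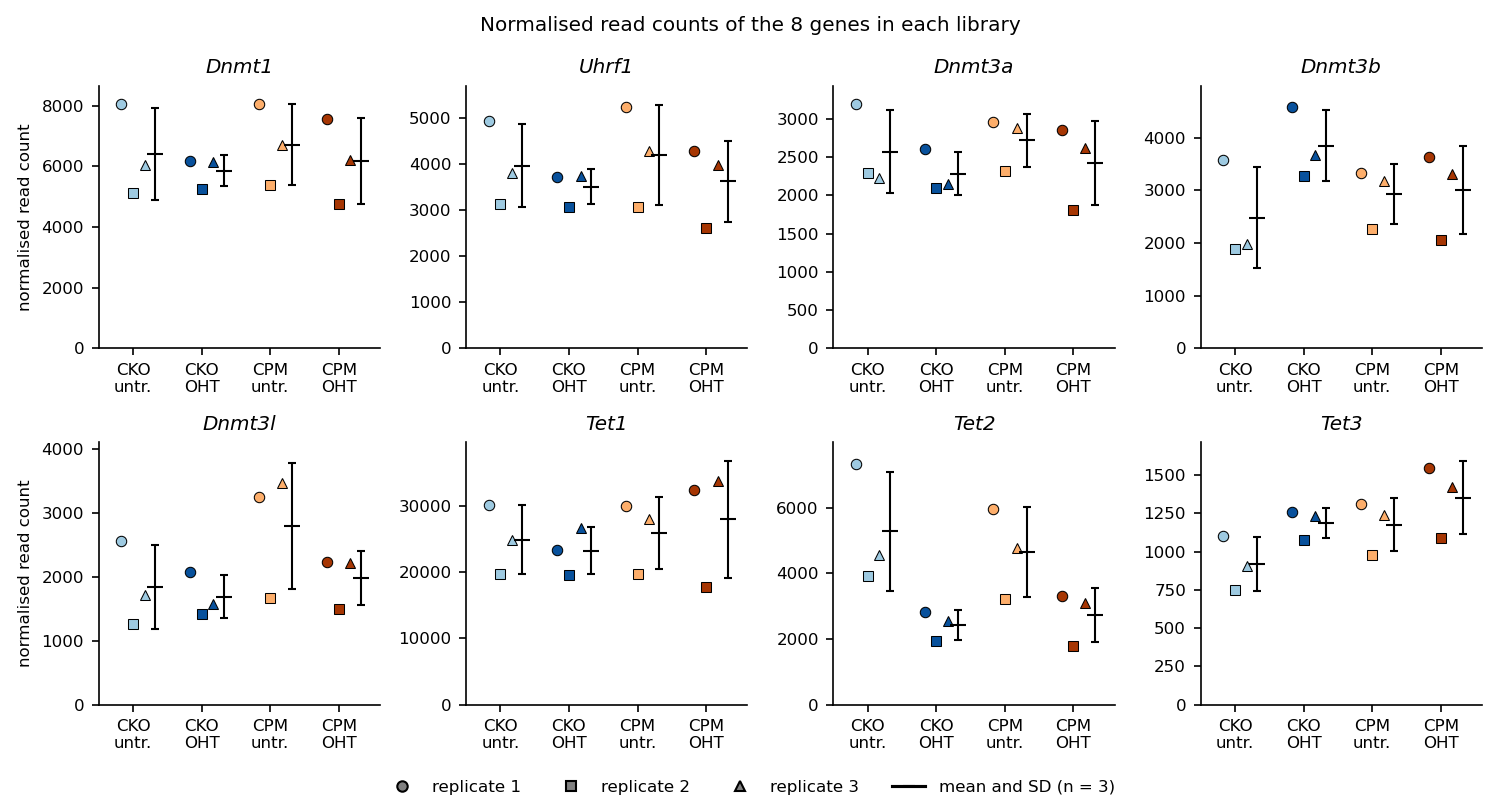
Normalised read counts of the 8 members (vertical axes, linear and starting at 0) in the 12 libraries, with 1 point per library and the mean and SD of each group beside them. The Tet2 points of both OHT groups lie low, and the Dnmt3b points of OHT-treated PRC1CKO cells lie between 3279 and 4591, a range that also holds untreated replicate 1 of both lines (3579 and 3336) and OHT-treated PRC1CPM replicates 1 and 3 (3636 and 3315).

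Among the maintenance genes, Dnmt1 (NM_001199433, chr9:20907206-20959888, minus strand, mm10) was at 8068, 5109 and 6042 normalised reads in untreated PRC1CKO cells and at 6167, 5253 and 6154 after OHT. In PRC1CPM cells it was at 8041, 5370 and 6696 untreated and 7560, 4750 and 6203 after OHT. The groups overlapped in both lines, and within every group but OHT-treated PRC1CKO cells the spread between replicates exceeded the difference between group means. The log2 fold changes were -0.11 (SE 0.21, adjusted p = 0.821, limma) and -0.13 (adjusted p = 0.849, limma).

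Uhrf1 (chr17:56303337-56323486, plus strand, 17 exons) was at 4919, 3135 and 3809 normalised reads in untreated PRC1CKO cells and at 3716, 3058 and 3743 after OHT. The PRC1CPM libraries held 5235, 3059 and 4278 untreated and 4271, 2616 and 3968 after OHT. Its groups overlapped as those of Dnmt1 did, with log2 fold changes of -0.16 (SE 0.22, adjusted p = 0.737, limma) and -0.21 (adjusted p = 0.706, limma). For Dnmt1, Uhrf1 and Dnmt3a in PRC1CPM cells these small values were 0.17, 0.090 and 0.12 when the spike-in was used without the correction by genomic DNA, so their sign depends on the calibration.

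Within a library the level of 1 member over another does not depend on the calibration. Per kilobase, Uhrf1 stood at 1.59, 1.60 and 1.65 times Dnmt1 in untreated PRC1CKO cells and at 1.58, 1.52 and 1.59 times after OHT. The PRC1CPM means of this ratio were 1.62 and 1.53. Its size rests on the long Dnmt1 gene body, of whose reads 0.99% to 1.34% lay outside the inner transcript NM_001199432. The log2 ratio after OHT minus that in untreated cells was -0.048 (SE 0.024) and -0.084 (SE 0.090). The PRC1CKO groups did not overlap, all 3 OHT libraries lying slightly below the untreated ones, and the PRC1CPM groups overlapped.

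Of the de novo enzymes, Dnmt3b (NM_001003960, chr2:153649449-153687730, plus strand, 23 exons) was at 3579, 1884 and 1986 normalised reads in untreated PRC1CKO cells and at 4591, 3279 and 3663 after OHT. Untreated replicate 1 reached above the lowest OHT library, so the groups overlapped by that library, while the other untreated libraries lay below all 3 OHT libraries. The log2 fold change was 0.68 (SE 0.23, 1.60-fold, adjusted p = 0.0297, limma), and 0.57 relative to the median of all genes.

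This rise of Dnmt3b stood close to the threshold. Without untreated replicate 1 it was 0.98 (adjusted p = 0.000648, limma). It lost its call without untreated replicate 2 (0.51, adjusted p = 0.150), without untreated replicate 3 (0.55, adjusted p = 0.195), without OHT replicate 1 (0.55, adjusted p = 0.179) and without OHT replicate 3 (0.71, adjusted p = 0.0558), all by limma. It was also not called on the TMM scale (0.56, adjusted p = 0.00391, under 1.5-fold), with the uncorrected spike-in (0.53, adjusted p = 0.146), with no filter on low counts (0.68, adjusted p = 0.0659), all by limma, or with DESeq2 (0.63, adjusted p = 0.0952), while edgeR called it.

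In PRC1CPM cells Dnmt3b was at 3336, 2270 and 3180 normalised reads untreated and at 3636, 2054 and 3315 after OHT. The groups overlapped and their means, 2929 ± 576 and 3001 ± 836 (SD, n = 3), differed by far less than the spread between replicates (log2 fold change 0.013, adjusted p = 0.988, limma). The difference of the OHT responses of the 2 lines was itself -0.67 (SE 0.33, unadjusted p = 0.0480, adjusted p = 1.00, limma), and did not pass the test in this fit, which had no replicate block. With the replicate number as a block it was called (adjusted p = 0.0215, limma). The lowest r of same-numbered libraries within PRC1CKO cells was 0.0988, while over all groups a library correlated best with its own number in 36 of 36 cases.

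Dnmt3a (NM_007872, chr12:3806980-3914443, plus strand, 23 exons) was at 3200, 2291 and 2230 normalised reads in untreated and 2605, 2099 and 2151 in OHT-treated PRC1CKO cells. Its PRC1CPM libraries held 2957, 2325 and 2881 untreated and 2851, 1805 and 2622 after OHT. Groups overlapped in both lines, with log2 fold changes of -0.16 (SE 0.22, adjusted p = 0.725, limma) and -0.18 (adjusted p = 0.747, limma).

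The Dnmt3a gene body contains that of a shorter transcript (NM_153743), which begins at an internal start and encodes the isoform best known from ESCs. The first part of the long gene body, chr12:3806980-3891743, lies outside it and held 18.1%, 16.4% and 15.6% of the Dnmt3a reads in untreated PRC1CKO cells and 24.5%, 19.5% and 22.0% after OHT. In PRC1CPM cells the share was 20.0%, 20.8% and 14.1% untreated and 24.8%, 23.9% and 14.2% after OHT. The 2 PRC1CKO groups did not overlap in this share and the PRC1CPM groups did, but in normalised reads the outer part went only from a mean of 434 to 507 and from 494 to 504. The short transcript's gene body gave log2 fold changes of -0.25 (adjusted p = 0.526, limma) and -0.23 (adjusted p = 0.653, limma). The counting strand is not stated, and genes on the opposite strand (Dnmt3aos and Gm31623) overlap the locus, so their reads may be included.

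Dnmt3l (chr10:78042287-78063622, plus strand, 14 exons), the catalytically inactive partner, was at 2561, 1257 and 1714 normalised reads in untreated and 2075, 1417 and 1578 in OHT-treated PRC1CKO cells. It was at 3250, 1672 and 3474 in untreated and 2238, 1501 and 2215 in OHT-treated PRC1CPM cells. The groups overlapped in both lines, and among the untreated PRC1CPM libraries replicate 2 lay at about the level of the other line. The log2 fold changes were -0.083 (SE 0.25, adjusted p = 0.891, limma) and -0.45 (adjusted p = 0.295, limma), and without untreated PRC1CPM replicate 2 the latter was -0.78 (adjusted p = 0.0179, limma) and passed the test. With the replicate number as a block the PRC1CPM value was -0.45 (adjusted p = 0.00351, limma), under 1.5-fold and so not called.

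The first part of the Dnmt3l gene body, chr10:78042287-78049841, held 0 to 13 reads per library, while the next part, chr10:78049842-78055334, held 52.2% to 56.4% of the reads over the transcript NM_019448, which starts there. Almost all Dnmt3l reads thus lay downstream of the inner start in every group. Aire, on the opposite strand, overlaps the locus.

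The ratio of the de novo enzymes, which the calibration does not touch, separated the PRC1CKO groups. Dnmt3a per kilobase was 0.318, 0.433 and 0.400 of Dnmt3b in untreated PRC1CKO cells and 0.202, 0.228 and 0.209 after OHT, with no overlap (log2 difference -0.84, SE 0.14). In PRC1CPM cells it was 0.316, 0.365 and 0.323 untreated and 0.279, 0.313 and 0.282 after OHT, also without overlap but by less (-0.20, SE 0.084). The size of this ratio depends on the gene body counted for Dnmt3a. With that of the inner transcript NM_153743 it was 1.23, 1.71 and 1.60 in untreated PRC1CKO cells and 0.723, 0.869 and 0.773 after OHT (-0.93, SE 0.16), and 1.20, 1.37 and 1.31 against 0.994, 1.13 and 1.14 in PRC1CPM cells (-0.25, SE 0.086), again without overlap in either line. Dnmt3b over Dnmt1 was 0.611, 0.507 and 0.452 in untreated PRC1CKO cells and 1.02, 0.859 and 0.819 after OHT (log2 difference 0.79, SE 0.16). Its PRC1CPM groups overlapped (0.14, SE 0.11). The size of this ratio rests on the long Dnmt1 gene body. These ratios were described with no test.

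**Figure D2:**
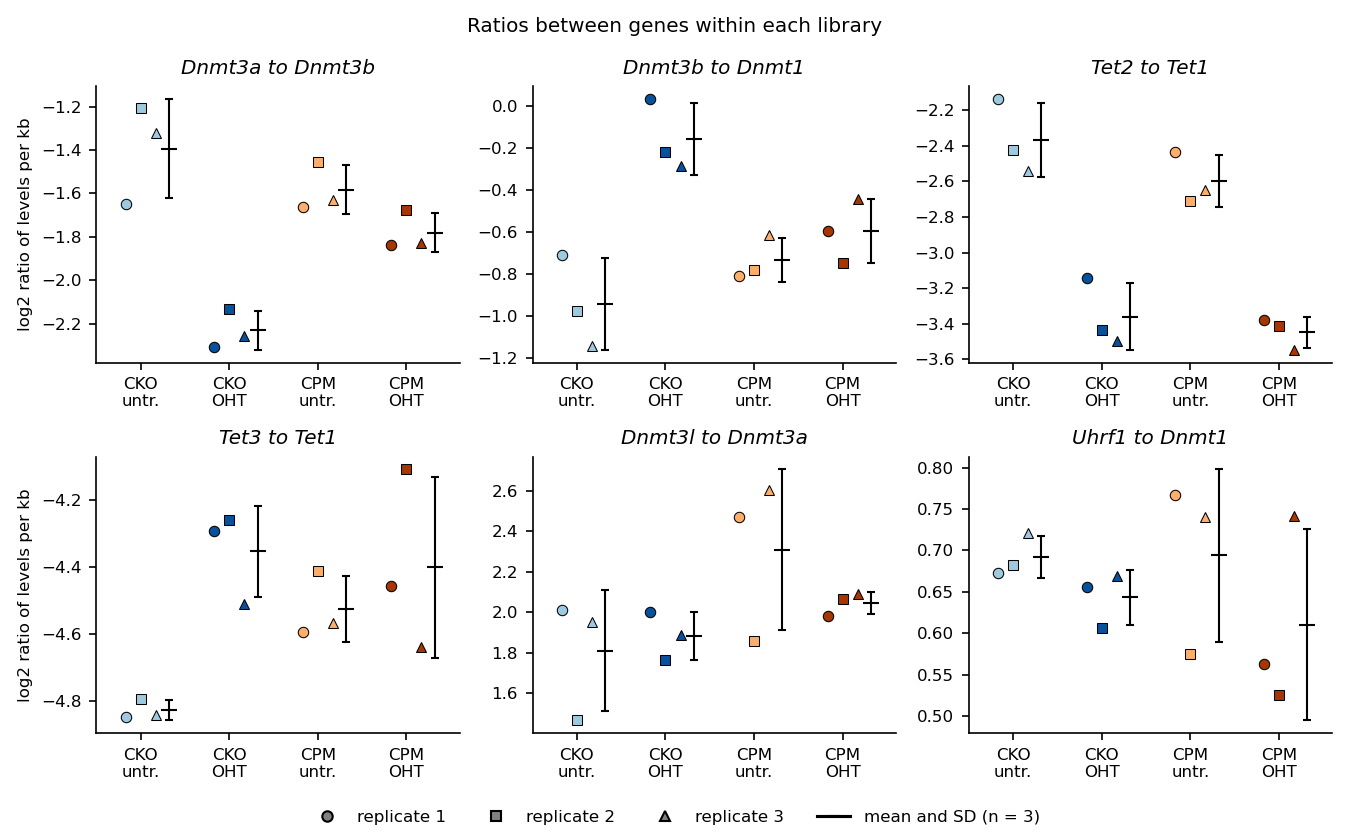
Ratios of members within each library, per kilobase of gene body, on a log2 axis, with 1 point per library and the mean and SD of each group beside them. The Tet2 to Tet1 ratio is lower after OHT in all libraries of both lines, and the log2 ratio of Dnmt3a to Dnmt3b lies between -2.31 and -2.13 in OHT-treated PRC1CKO cells against -1.65 to -1.21 untreated.

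Of the TET enzymes, Tet1 (chr10:62804570-62880014, minus strand, 13 exons) was by far the most abundant, at 30110, 19670 and 24790 normalised reads in untreated and 23376, 19602 and 26662 in OHT-treated PRC1CKO cells. In PRC1CPM cells it was at 30021, 19772 and 27984 untreated and 32317, 17802 and 33729 after OHT. The groups overlapped in both lines, with log2 fold changes of -0.088 (SE 0.21, adjusted p = 0.862, limma) and 0.075 (adjusted p = 0.927, limma). On a scale set by the genes themselves (TMM) the PRC1CPM value was -0.032. Gm51805, on the opposite strand, overlaps the locus, so its reads may be included here and in the ratios to Tet1.

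Tet2 (chr3:133463677-133544390, minus strand, 11 exons) was at 7330, 3925 and 4556 normalised reads in untreated and 2828, 1936 and 2531 in OHT-treated PRC1CKO cells. All 3 OHT libraries lay below all 3 untreated ones. Tet2 fell by 1.08 on the log2 scale (SE 0.24, 2.11-fold lower, adjusted p = 0.000398, limma), or to -1.20 relative to the median of all genes. The call was kept under all 8 other settings and without any 1 of the 12 libraries, with values from -1.27 to -0.82, the latter without untreated replicate 1. Leaving out a PRC1CPM library could change only the adjusted p and not the value.

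In PRC1CPM cells Tet2 was at 5949, 3227 and 4780 normalised reads untreated and at 3320, 1788 and 3092 after OHT. The groups overlapped by 1 library on each side, the lowest untreated and the highest OHT library. Same-numbered libraries of these groups deviated together, and each OHT library lay below the untreated library of its number. With the replicate number as a block the log2 fold change was -0.77 (adjusted p = 3.32e-08, limma). Tet2 fell by 0.77 on the log2 scale (SE 0.24, 1.71-fold lower, adjusted p = 0.0179, limma), or to -0.87 relative to the median. The call was lost without untreated replicate 1 (-0.57, adjusted p = 0.0871), without untreated replicate 3 (-0.73, adjusted p = 0.0737) and without OHT replicate 2 (-0.49, adjusted p = 0.209), all by limma. Of the 8 other settings it was lost with the uncorrected spike-in (-0.47, adjusted p = 0.171, limma), with no filter on low counts (-0.77, adjusted p = 0.0559, limma) and with DESeq2 (-0.77, adjusted p = 0.0512), and kept under the other 5, among them the TMM scale (-0.88, adjusted p = 0.000617, limma) and edgeR (-0.77, adjusted p = 0.0152).

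Within libraries the Tet2 to Tet1 ratio separated the groups in both lines. Per kilobase it was 0.228, 0.187 and 0.172 in untreated PRC1CKO cells and 0.113, 0.0923 and 0.0887 after OHT (log2 difference -0.99, SE 0.16). In PRC1CPM cells it was 0.185, 0.153 and 0.160 untreated and 0.0960, 0.0939 and 0.0857 after OHT (-0.85, SE 0.098). Every OHT library of either line thus lay below every untreated library, whatever the calibration. The difference of the Tet2 responses of the lines was 0.31 (SE 0.34, unadjusted p = 0.367, limma) and did not pass the test.

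Tet3 (chr6:83362374-83441678, minus strand, 11 exons) was the least abundant member, at 1099, 746 and 908 normalised reads in untreated and 1256, 1077 and 1231 in OHT-treated PRC1CKO cells. It was at 1308, 977 and 1240 untreated and 1546, 1087 and 1424 after OHT in PRC1CPM cells. Groups overlapped in both lines, in PRC1CKO cells by 1 library, and the log2 fold changes of 0.39 (SE 0.23, adjusted p = 0.274, limma) and 0.20 (adjusted p = 0.737, limma) did not pass the test. Tet3 over Tet1 was higher in all 3 OHT libraries of PRC1CKO cells than in the untreated ones (log2 difference 0.48, SE 0.081), and the PRC1CPM groups overlapped (0.12, SE 0.17).

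**Figure D3:**
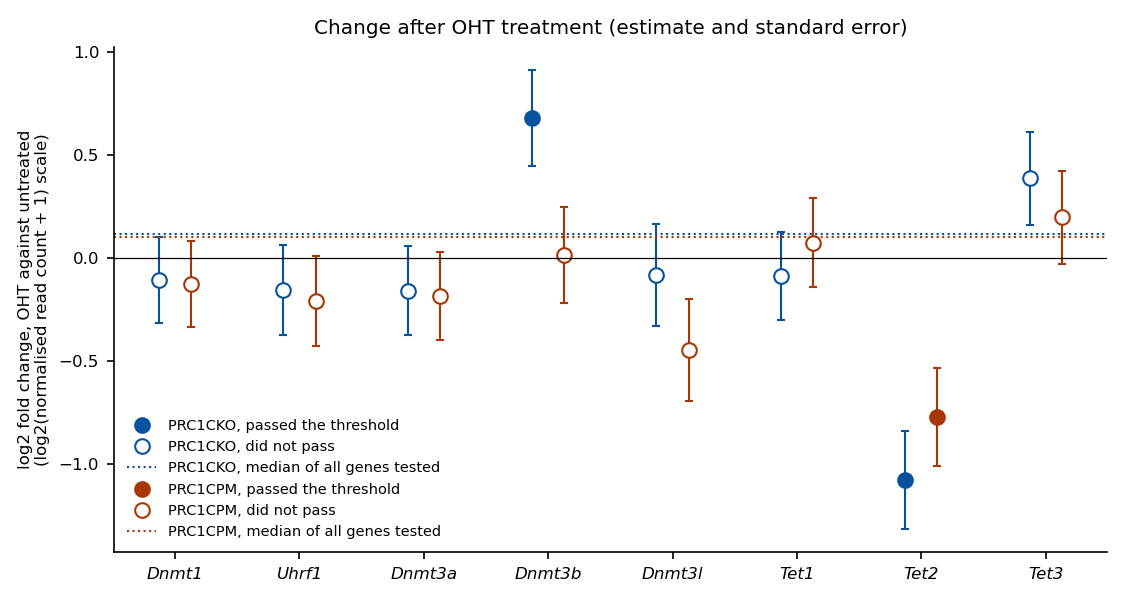
Log2 fold changes of the 8 members after OHT in PRC1CKO and PRC1CPM cells with their standard errors (limma), and the median of all tested genes as a line. Tet2 lies at -1.08 and -0.77 and Dnmt3b at 0.68 and 0.013, while the other members lie between -0.45 and 0.39.

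The promoters of the 2 called members are shown for their CpG sites. In the RefSeq annotation (GRCm38.p6) the window from 250 bases before to 50 after the Tet2 start held 57 CpG sites, more than in 99.8% of 32851 such windows, and that of Dnmt3b held 30 (above 88.3%), where the median window held 7. Among the members that were not called, the window of Dnmt3a held 46 at the start of NM_007872 and 18 at that of NM_153743, and those of Tet3 and Tet1 held 22 and 17, that of Tet1 lying at a start upstream of the transcript counted here. The window of Dnmt1 held 2 at the start of NM_001199433, the transcript described here, and 33 at that of NM_001199432, that of Uhrf1 held 12 at the start of NM_001111079 and 33 at a second start, and those of Dnmt3l held 3 to 6. The 250 bases before each start are shown 5′ to 3′ on the strand of the gene with CpG sites in capitals. Tet2 is read from chr3:133544391-133544640 (minus strand) and Dnmt3b from chr2:153649199-153649448 (plus strand).
Tet2: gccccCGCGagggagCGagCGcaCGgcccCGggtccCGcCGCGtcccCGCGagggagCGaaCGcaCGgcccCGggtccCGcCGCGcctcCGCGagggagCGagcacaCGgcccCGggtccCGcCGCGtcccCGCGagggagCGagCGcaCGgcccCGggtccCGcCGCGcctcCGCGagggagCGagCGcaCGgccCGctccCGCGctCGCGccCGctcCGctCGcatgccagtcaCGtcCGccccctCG
Dnmt3b: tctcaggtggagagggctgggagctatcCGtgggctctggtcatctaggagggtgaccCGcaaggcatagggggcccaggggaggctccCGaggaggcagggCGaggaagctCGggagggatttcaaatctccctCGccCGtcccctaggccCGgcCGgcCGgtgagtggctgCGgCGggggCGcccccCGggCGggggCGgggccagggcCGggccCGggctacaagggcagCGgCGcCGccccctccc

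The upstream sequence of Tet2 held 51 CpG sites and that of Dnmt3b 21. Exact matches on both strands were counted for CACGTG, an E-box of the MYC/MAX type, and GCGGGAA, an E2F-type motif, in the 15 windows of the 8 members. CACGTG was in 2 of them (Dnmt3a NM_153743 and Dnmt3l NM_019448) against 7.15% of all windows, and GCGGGAA in 1 (Uhrf1 NM_001111079) against 4.60%. Neither motif was found in the windows of Tet2 or Dnmt3b, and a match is only a description of the letters.

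Compared per kilobase of the gene bodies taken here, the order of the members was led by Tet1, Uhrf1 and Dnmt1 in PRC1CKO cells and ended with Dnmt3a and Tet3 in all 4 groups. Tet1 averaged 329 normalised reads per kilobase in untreated PRC1CKO cells, above 97.1% of tested genes, and 308, 344 and 370 in the other groups (OHT-treated PRC1CKO, untreated and OHT-treated PRC1CPM cells, in this order). Uhrf1 averaged 196, 174, 208 and 180 in the 4 groups, Dnmt1 122, 111, 127 and 117, and Dnmt3l 86.4, 79.2, 131 and 93.0. Tet1 and Uhrf1 did not overlap in any group, and neither did Uhrf1 and Dnmt1 in PRC1CKO cells, whereas Dnmt1 and the next member in the order overlapped in both PRC1CKO groups.

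The middle of the order was where the groups differed. In untreated PRC1CKO cells Tet2 averaged 65.3 and Dnmt3b 64.9 normalised reads per kilobase, and their ranges overlapped. After OHT Tet2 averaged 30.1, going from above 77.9% to above 58.9% of tested genes, and Dnmt3b 100.4, going from above 77.7% to above 86.5%. In PRC1CPM cells Tet2 went from 57.6 to 33.9 (above 73.9% and 60.3%), while Dnmt3b was at 76.5 and 78.4 (above 80.1% and 80.2%). Dnmt3a (21.3 to 25.3 over the 4 group means) and Tet3 (11.6 to 17.1) kept the last places, and these overlapped only in OHT-treated PRC1CPM cells. The places of Dnmt1, Dnmt3a and Dnmt3l rest on long gene bodies whose first parts held few reads per kilobase. For Dnmt1 0.99% to 1.34% of the reads lay outside the inner transcript NM_001199432. Over its inner transcript, Dnmt3a (NM_153743) averaged 94.2, 78.3, 98.1 and 84.7 normalised reads per kilobase in the 4 groups. This was above the mean of Tet2 in all 4 and above that of Dnmt3b in all but OHT-treated PRC1CKO cells. Dnmt3l (NM_019448) averaged 134, 122, 202 and 144 over its inner transcript. Dnmt1 was not measured per kilobase over its inner transcript, so Dnmt3l and Dnmt1 are not ranked on that basis.

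The remaining comparisons set the lines against each other. Between the untreated lines 0 of 8 members were called (2.69% of all genes were, in either direction), with 1 at an unadjusted p under 0.05 by limma, edgeR and DESeq2 alike. That member was Dnmt3l, 0.59 higher on the log2 scale in PRC1CPM cells (SE 0.25, unadjusted p = 0.0207, adjusted p = 0.230, limma), at 2799 ± 982 against 1844 ± 661 normalised reads (SD, n = 3). It passed the test without untreated PRC1CKO replicate 1 (0.86, adjusted p = 0.0217) or untreated PRC1CPM replicate 2 (0.93, adjusted p = 0.0129), both by limma. Same-numbered libraries of these 2 groups deviated together, and with the replicate number as a block Dnmt3l was called (0.59, adjusted p = 0.000158, limma), as were 1884 genes in all against 455 without the block. With the block 3 members had an unadjusted p under 0.05 by limma. Tet3 was at 0.36 (adjusted p = 0.521, limma without the block). Its lowest adjusted p over the 7 other settings that apply was 0.0466 (limma). Its values stayed between 0.084 and 0.50, under 1.5-fold, so it was not called. The 852 tested genes of chromosome 6, on which Tet3 lies, had a median of 0.31 against 0.11 for genes elsewhere. The part of the chromosome in the Tet3 value was not tested.

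After OHT 0 of 8 members were called between the lines (1.47% of all genes were, or 249, against 1363 with the replicate number as a block and again 0 members). Without the block 0 had an unadjusted p under 0.05 by limma, edgeR or DESeq2, and with it 1 had by limma. Dnmt3b stood at -0.39 in PRC1CPM against PRC1CKO cells (adjusted p = 0.603) and Tet2 at 0.14 (adjusted p = 0.973), both by limma without the block. The lowest adjusted p of Dnmt3b over the 7 other settings that apply was 0.0265 (limma). Its values stayed between -0.54 and -0.13, under 1.5-fold, so it was not called. The interaction of line and treatment, which asks whether the OHT responses differ, called 0 of 8 members (0.0236% of all genes, or 4), with 1 at an unadjusted p under 0.05 by limma, Dnmt3b, and 0 by edgeR and DESeq2. With the replicate number as a block it called 324 genes and 1 member, Dnmt3b (-0.67, adjusted p = 0.0215, limma). The lowest r of same-numbered libraries within PRC1CKO cells was 0.0988, just under the 0.1 that the other groups passed. Over all groups, however, a library correlated best with its own number in 36 of 36 cases. The labels do not say whether these libraries are paired, so both fits are given. The comparisons share their libraries and are not independent of each other.

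**Figure D4:**
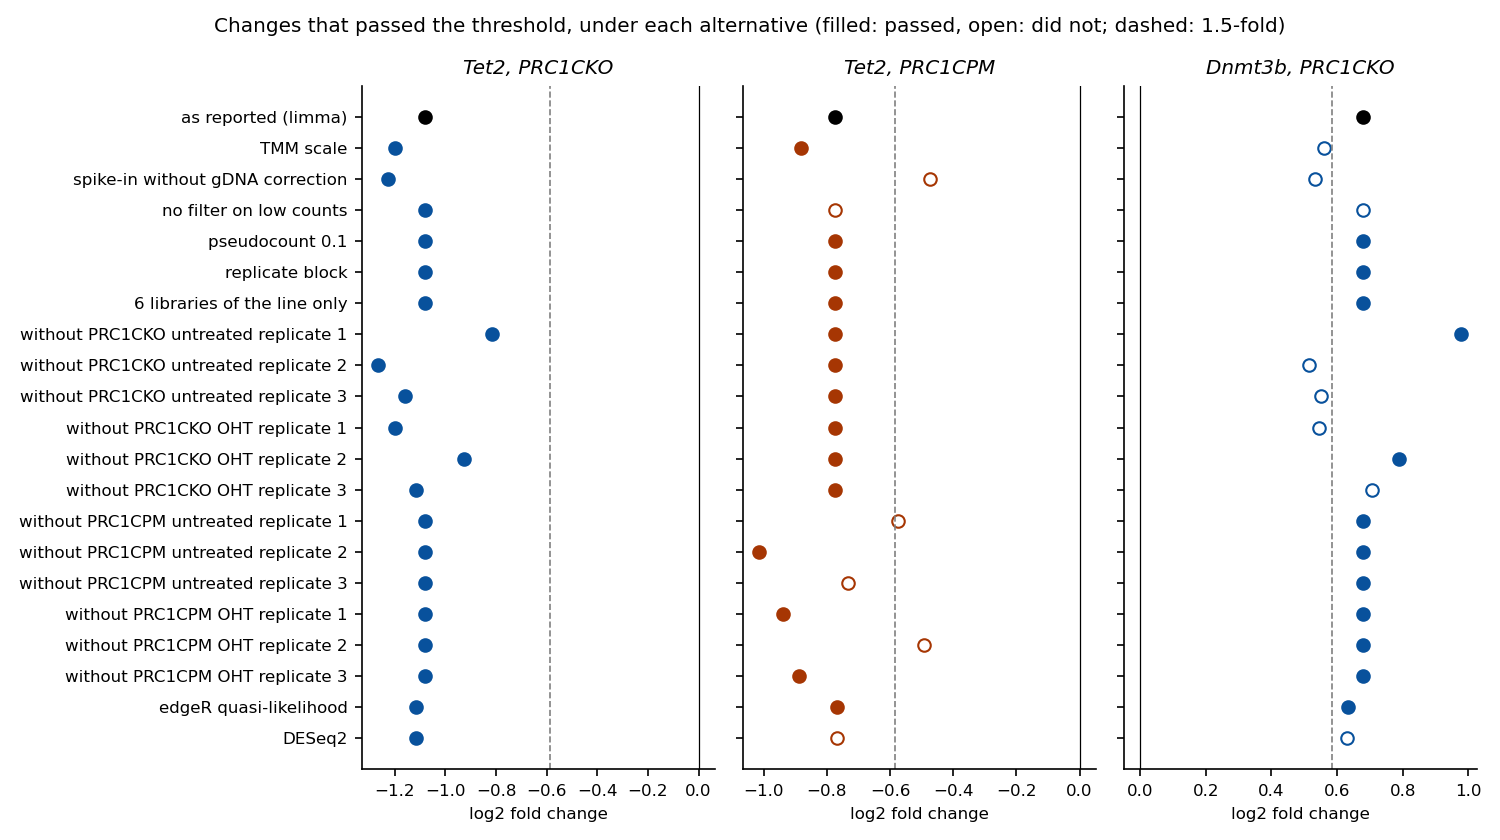
Log2 fold changes of Tet2 in both lines and of Dnmt3b in PRC1CKO cells under each setting and with each library left out, with filled points where the call was kept. Tet2 in PRC1CKO cells stays between -1.27 and -0.82 with the call kept throughout, while the other results lose it under several settings.

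The genes that work with these enzymes were read from lists of their partners. Of the 10 named list genes called in PRC1CKO cells, 10 were also called without untreated replicate 1. Of those not called, Zbtb4 had a larger change without that library and the others smaller ones. Mbd3 went from -0.28 to -0.047, Shmt2 from -0.43 to -0.20, Kmt2b from -0.30 to -0.16, Mat2b from -0.33 to -0.17 and Mcm6 from -0.29 to -0.16. With the spike-in not corrected by genomic DNA the PRC1CPM medians of all 8 lists were above 0, from 0.13 to 1.66, where the median of all genes was 0.40. Of 10 partners of maintenance methylation 9 were tested and 0 called in either line, with medians of -0.085 in PRC1CKO and -0.17 in PRC1CPM cells against 0.12 and 0.10 over all genes. Those furthest from 0 were Pclaf, a partner of PCNA that takes part in bringing DNMT1 to chromatin (-0.63, adjusted p = 0.0967, and -0.47, adjusted p = 0.324, limma), and Cdca7, which works with the remodeller HELLS (-0.49, adjusted p = 0.160, and -0.32, adjusted p = 0.511, limma). Both were called lower in PRC1CKO cells on the TMM scale (-0.75, adjusted p = 0.00115, and -0.61, adjusted p = 0.00148, limma). Pclaf was also called there with the uncorrected spike-in (-0.78, adjusted p = 0.0387) and without untreated replicate 2 (-0.83, adjusted p = 0.0292), both by limma. With the replicate number as a block it was called as well (-0.63, adjusted p = 0.000241, limma). Without untreated replicate 1 Pclaf was at -0.34 and Cdca7 at -0.31, and neither was called. For 13 tested S phase genes, given because Dnmt1 and Uhrf1 follow the cell cycle, 0 were called and the medians were -0.15 and -0.10, with Mcm3 at -0.46 and -0.38 and Mcm6 at -0.29 and -0.25. Slbp of this list, named after its values were seen, was at 0.36 in PRC1CPM cells (adjusted p = 0.370, limma). It was called higher there with the uncorrected spike-in (0.66, adjusted p = 0.049, limma).

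Of 7 regulators of de novo methylation 2 fell in PRC1CKO cells and 0 in PRC1CPM cells, where 3.09% and 1.40% of all tested genes did, with 0 higher and medians of -0.16 and -0.14. On the TMM scale Lin28a, named after its values were seen, was called lower in PRC1CKO cells as well (-0.59, adjusted p = 0.000132, against -0.47, adjusted p = 0.134, on the deposited scale, limma). Prdm14, which represses Dnmt3b in ESCs, was at 410, 462 and 392 normalised reads in untreated PRC1CKO cells and at 236, 242 and 266 after OHT, without overlap (-0.76, adjusted p = 0.0324, limma). In PRC1CPM cells it was at 293, 324 and 262 untreated and 324, 247 and 425 after OHT, with overlap (0.15, adjusted p = 0.860, limma). Zfp281, a zinc finger factor that associates with TET1, was at 3632, 2835 and 2843 untreated and 1689, 2020 and 1977 after OHT in PRC1CKO cells (-0.71, adjusted p = 0.00880, limma), and was at -0.35 in PRC1CPM cells (adjusted p = 0.337, limma). The call of Prdm14 was lost without any 1 PRC1CKO library other than untreated replicate 1 (-0.81 to -0.69, adjusted p from 0.0642 to 0.128, limma), and that of Zfp281 without OHT replicate 1 (-0.62, adjusted p = 0.0890, limma). Whether these genes have a part in the Dnmt3b value was not tested.

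Downstream of the TET enzymes, 19 genes of base excision and demethylation were tested, of which 3 fell in PRC1CKO and 2 in PRC1CPM cells, against 3.09% and 1.40% of all tested genes, with 0 higher and medians of -0.21 and -0.12. Apobec1, a cytidine deaminase, fell in both lines (-1.23, adjusted p = 0.000626, and -1.14, adjusted p = 0.00241, limma), its means going from 323 to 137 and from 513 to 231 normalised reads. Neil2, a DNA glycosylase, fell in PRC1CKO cells (-1.08, adjusted p = 0.000927, limma) and was at -0.36 in PRC1CPM cells (adjusted p = 0.471, limma). Of the stress-induced GADD45 genes, which have been linked to demethylation, Gadd45a fell in PRC1CKO cells (-0.76, adjusted p = 0.0130, limma) and was at -0.23 in PRC1CPM cells (adjusted p = 0.696, limma), while Gadd45g fell in PRC1CPM cells (-1.32, adjusted p = 0.00355, limma). In PRC1CKO cells Gadd45g was at -0.82 (adjusted p = 0.0870) and was called lower on the TMM scale (-0.94, adjusted p = 0.0163) and with the uncorrected spike-in (-0.96, adjusted p = 0.0354), all by limma. Gadd45a lost its call without untreated replicate 2 (-0.71, adjusted p = 0.0601), OHT replicate 2 (-0.72, adjusted p = 0.0658) or OHT replicate 3 (-0.75, adjusted p = 0.0593), all by limma.

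Of 8 genes for CXXC domain proteins, a domain that binds unmethylated CpG, 1 rose in each line, which is near the share of all tested genes that did (16.5% and 13.1%), with medians of -0.034 and -0.15. Cxxc5, named after its values were seen, was not called in PRC1CKO cells (-0.59, adjusted p = 0.0576) but was called lower there on the TMM scale (-0.71, adjusted p = 0.000391) and with the uncorrected spike-in (-0.74, adjusted p = 0.0298), all by limma. The gene that rose was Cxxc4, which lies near Tet2 on chromosome 3 and whose protein, IDAX, binds TET2. It was at 17.9, 12.3 and 10.1 normalised reads in untreated PRC1CKO cells and at 39.8, 57.4 and 24.4 after OHT (1.48, adjusted p = 0.0197, limma), and at 20.5, 9.4 and 8.1 against 55.0, 42.5 and 59.2 in PRC1CPM cells (2.05, adjusted p = 0.00115, limma). All OHT libraries lay above all untreated libraries of their line, on 6 to 62 reads a library, a far lower level than that of Tet2. In PRC1CKO cells its call was lost without untreated replicate 3 (1.31, adjusted p = 0.0977), OHT replicate 1 (1.45, adjusted p = 0.0688) or OHT replicate 2 (1.19, adjusted p = 0.164), and with the uncorrected spike-in (1.34, adjusted p = 0.0533), all by limma. Kmt2b was at -0.30 and -0.40 and was not called.

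Of 7 readers of methylated CpG 0 were called in either line (medians 0.10 and 0.064), with Zbtb4 at 0.60 (adjusted p = 0.154, limma) and 0.064. Zbtb4 passed the test in PRC1CKO cells without untreated replicate 1 (0.89, adjusted p = 0.0141) and with the replicate number as a block (0.60, adjusted p = 0.00519), both by limma. Mbd3 was at -0.28 and -0.33. Of 8 genes of the methyl donor cycle, which supplies S-adenosylmethionine, 0 were called in either line (medians -0.046 and -0.00015). Shmt2, of folate metabolism, was at -0.43 and -0.56 (adjusted p = 0.226 and 0.104, limma), and passed the test in PRC1CPM cells without untreated replicate 2 (-0.76, adjusted p = 0.0203, limma) and on the TMM scale (-0.67, adjusted p = 0.00138, limma). Mat2b was at -0.33 and -0.072.

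Germline genes whose promoters are methylated in somatic cells are a common readout of the pathway. Of 12 such genes 11 were tested and 8 rose in each line, where 16.5% and 13.1% of all tested genes did, with medians of 1.36 and 1.37, and the 3 that were not called were Asz1, Sycp3 and Hormad1 in both lines. Asz1 was at 1.37 in PRC1CPM cells (adjusted p = 0.0751) and was called there with the replicate number as a block (adjusted p = 0.0143) and with the uncorrected spike-in (1.66, adjusted p = 0.0193), all by limma. Tdrd1, of the piRNA pathway, went from a mean of 124 to 609 normalised reads in PRC1CKO cells and from 126 to 602 in PRC1CPM cells (2.31, adjusted p = 1.43e-09, and 2.24, adjusted p = 9.30e-09, limma). Sycp1, of the synaptonemal complex, was at 2.76 and 1.5, the germ cell helicase Ddx4 at 2.26 and 1.81, and Taf7l at 2.21 and 1.79, all called. Many of these genes are also known as Polycomb targets, and no methylation was measured here.

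**Figure D5:**
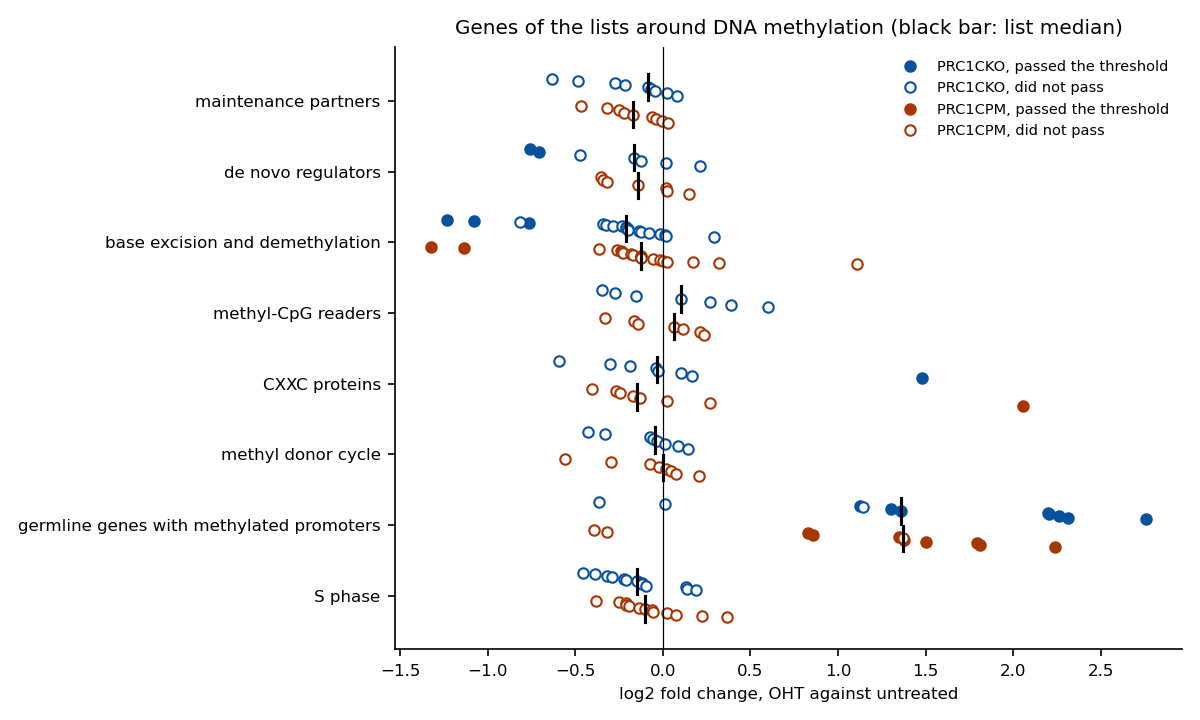
Log2 fold changes after OHT of the genes of each partner list in PRC1CKO and PRC1CPM cells, with 1 point per gene, filled where called, and a bar at the list's median. The germline genes lie highest, with medians of 1.36 and 1.37, and the other lists have medians between -0.21 and 0.10.

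The genes whose log2 values ran most closely with a called member over the 12 libraries were looked up as a description, since the libraries share groups and calibration. For Tet2 they were Ttn (Pearson r = 0.993), Enoph1 (0.979) and Wdr82 (0.973). For Dnmt3b they were Tmem234 (0.966), Mfsd1 (0.962) and Psmd9 (0.956).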

How the data were processed

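The deposited gene table gave normalised read counts for 20633 non-redundant mouse refGene gene bodies in 12 RNA libraries. Per the labels and the study's methods, the authors removed rDNA reads with Bowtie 2, aligned reads to mm10 and dm6 with STAR and Bowtie 2, kept unique reads, removed duplicates, and counted reads over gene bodies. The authors divided these counts by DESeq2 size factors, set from the Drosophila spike-in and corrected by its ratio in genomic DNA, to give the deposited signal, which compares total RNA per cell. A fault in the calibration shifts all genes of a library together. The deposited table also held the authors' log2 fold changes and p-values, which were not used.

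Whole reads were recovered from the signal (100% of values whole within 0.02). The main test was limma (version 3.58.1, R 4.3.3) on log2(normalised read count + 1) over 12 libraries in 4 groups, with a mean-dependent prior and Benjamini-Hochberg adjustment over the 16940 genes that reached 10 reads in 3 or more libraries. Calls needed more than a 1.5-fold change with an adjusted p below 0.05, or for the interaction the adjusted p alone. Alternatives were TMM scaling, the spike-in without the genomic DNA correction, no filter, a pseudocount of 0.1, a replicate block, the 6 libraries of a line only, edgeR's quasi-likelihood test (4.0.16) and DESeq2 (1.42.0) on whole reads, and each library left out in turn. Same-numbered libraries deviated together with r over 0.1 in all 3 pairs between the untreated lines (0.186 to 0.377), between the OHT-treated lines (0.140 to 0.225) and between the PRC1CPM groups (0.246 to 0.438), but not between the PRC1CKO groups (lowest 0.0988). The pairing comes from these values, since the labels do not say what a number shares. In simulated counts for OHT-treated against untreated PRC1CKO cells, 149 of 200 changed genes were recovered among 16940, and 3 unchanged genes were called. Of the changed genes, 36 of 67 at 1.75-fold, 55 of 67 at 2-fold and 58 of 66 at 4-fold were recovered. The simulated libraries were drawn independently, with exact size factors and only 200 changed genes. In the data 2787 genes were called higher and 524 lower in this comparison. The simulation held no calibration faults or deviations shared by same-numbered libraries, so its rates may not hold for the data.

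The members and the lists were chosen with earlier results of these data known. Named were all members and, from each list, the called genes up to 4, or 2 by size where fewer were called, and the 3 genes closest to each called member. Of the lists, Dppa3, Tdg, Tex19.1, Pcna, Tyms and Dppa5a are not analysed here. Some listed genes are not reported here.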

Additional observations from a re-analysis of the deposited data

How the results depend on the processing

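Of the called results, Tet2 in PRC1CKO cells kept its call under all 8 settings and all 12 omissions of 1 library. Only omissions of PRC1CKO libraries could move its value. Dnmt3b in PRC1CKO cells lost it on the TMM scale (0.56, adjusted p = 0.00391, under 1.5-fold), with the uncorrected spike-in (0.53, adjusted p = 0.146), with no filter (0.68, adjusted p = 0.0659) and with DESeq2 (0.63, adjusted p = 0.0952), and ranged from 0.51 to 0.98 over omissions. Tet2 in PRC1CPM cells lost it with the uncorrected spike-in (-0.47, adjusted p = 0.171), with no filter (-0.77, adjusted p = 0.0559) and with DESeq2 (-0.77, adjusted p = 0.0512). Other adjusted p-values here are from limma. Members called thus fell from 1 to 0 in these cases, and over omissions ranged from 0 to 1 (higher, PRC1CKO), 0 to 2 (lower, PRC1CPM) and 0 to 1 (untreated lines). The causes were not tested.

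Several values near 0 changed sign. With the uncorrected spike-in, which moved the median of all genes from 0.12 to -0.029 in PRC1CKO and from 0.10 to 0.40 in PRC1CPM cells, the PRC1CPM response was 0.17 for Dnmt1, 0.090 for Uhrf1 and 0.12 for Dnmt3a, the untreated lines differed by -0.21 for Dnmt1 and Uhrf1, -0.19 for Dnmt3a and -0.22 for Tet1, and the interaction was 0.43, 0.39, 0.42, 0.082 and 0.26 for Dnmt1, Uhrf1, Dnmt3a, Dnmt3l and Tet3. On the TMM scale the PRC1CPM response was -0.094 for Dnmt3b and -0.032 for Tet1, the OHT-treated lines differed by -0.049, -0.082 and -0.036 and the untreated lines by -0.042, -0.040 and -0.022 for Dnmt1, Uhrf1 and Dnmt3a, with -0.055 for Tet1. Among list genes in PRC1CPM cells, Gadd45a (0.072), Mcm6 (0.051) and Mat2b (0.23) changed sign with the uncorrected spike-in and Zbtb4 with TMM (-0.043), and over omissions Prdm14 ranged from -0.045 to 0.35, Zbtb4 from -0.14 to 0.19 and Mat2b from -0.22 to 0.17. The interaction was 0.0095 for Dnmt1 and 0.0050 for Dnmt3a with edgeR and DESeq2. Over omissions, the PRC1CKO response ranged from -0.26 to 0.072 for Dnmt1, -0.31 to 0.015 for Uhrf1, -0.26 to 0.0090 for Dnmt3a, -0.33 to 0.18 for Dnmt3l and -0.25 to 0.061 for Tet1. The PRC1CPM response ranged from -0.28 to 0.050, -0.42 to 0.0087 and -0.31 to 0.015 for Dnmt1, Uhrf1 and Dnmt3a, -0.16 to 0.27 for Dnmt3b and -0.11 to 0.37 for Tet1. Between OHT-treated lines the ranges were -0.11 to 0.23, -0.12 to 0.24, -0.064 to 0.27 and -0.030 to 0.42 for Dnmt1, Uhrf1, Dnmt3a and Tet2, and between untreated lines -0.078 to 0.25, -0.10 to 0.28, -0.0010 to 0.26, -0.099 to 0.24 and -0.37 to 0.093 for Dnmt1, Uhrf1, Dnmt3a, Tet1 and Tet2. The interaction ranged from -0.20 to 0.16, -0.26 to 0.16, -0.19 to 0.17 and -0.021 to 0.46 for Dnmt1, Uhrf1, Dnmt3a and Tet1.

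Over all genes, the count lower in PRC1CKO cells (524) was 1133 with TMM and 326 to 674 over omissions, and that higher in PRC1CPM cells (2226) was 3628 with the uncorrected spike-in and 1439 to 2547. The count lower in PRC1CPM cells (237) was 595 with TMM, 75 with the uncorrected spike-in and 123 to 339. Between OHT-treated lines 249 became 785, 524, 157 and 429 with TMM, the uncorrected spike-in, no filter and DESeq2 (116 to 477 over omissions), and between untreated lines 455 became 1050 with TMM (244 to 1570). The interaction count of 4 became 14, 0, 1 and 15 with TMM, no filter, a pseudocount of 0.1 and DESeq2 (1 to 28).

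For comparisons within PRC1CKO cells and for the interaction, 1 pair of same-numbered libraries had an r under 0.1 (0.0988), so these libraries were taken to share only a number, although in 36 of 36 cases over all groups a library correlated best with its own number, a hint from the data that the design does not state. With the replicate number as a block, limma called Dnmt3l between untreated lines (0.59, adjusted p = 0.000158) and the interaction of Dnmt3b (-0.67, adjusted p = 0.0215), 1 member in each. In PRC1CKO cells it also called Pclaf, Gadd45g and Cxxc5 lower and Zbtb4 and Asz1 higher among partner list genes, and the markers Fgf5, Lef1 and Cdx2 higher. Over all genes the block gave 823 lower in PRC1CKO and 461 lower in PRC1CPM cells, 1363 between OHT-treated lines, 1884 between untreated lines and 324 for the interaction.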
